A study of Mus musculus with 2 samples.

Results

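Acod1 encodes aconitate decarboxylase 1, the mitochondrial enzyme that makes itaconate. It is 1 of the 31053 genes counted in both libraries, and it was chosen by its symbol because its level differed widely between them. The study compared macrophages grown from the marrow of wild-type 129Sv mice in 50 ng/ml macrophage colony-stimulating factor and 10% fetal bovine serum. One culture received 1 µg/ml of a truncated Tamm-Horsfall protein (THP, or uromodulin) that cannot polymerize, and the other received its vehicle, 5% dextrose. Treatment began on day 7, after fresh medium on days 3 and 6, and lasted 18 h. Both cultures were then lifted with TrypLE for 10 min, cleared of dead cells, passed through a 40 µm filter and made into 1 droplet single-cell RNA library each. How many mice gave marrow to each culture is not stated in the labels. With 1 library per group no test was possible, treatment cannot be told apart from culture or library preparation, and every interval below is a 95% interval of counting error only.

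Itaconate is made from cis-aconitate, an intermediate of the tricarboxylic acid (TCA) cycle, so Acod1 draws carbon from the cycle. Myeloid cells switch the gene on after Toll-like receptor or interferon signals, and it is known as one of the most inducible genes of activated macrophages. Itaconate inhibits succinate dehydrogenase and modifies cysteines of proteins such as Keap1, which releases the antioxidant factor Nrf2.

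The gene (ENSMUSG00000022126) lies on chromosome 14, 103046977 to 103056573, plus strand (GRCm38, GENCODE M21). It has 1 annotated transcript of 5 exons and 2623 bases, with a coding sequence of 1464 bases. The stretch before the transcript, chr14:103046762-103046976, is shown because several genes that varied with Acod1 below are known NF-kB targets. It is from RefSeq (GRCm38.p6), plus strand, in the direction of transcription, and capitals mark the motif matches named after it.

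Acod1 promoter: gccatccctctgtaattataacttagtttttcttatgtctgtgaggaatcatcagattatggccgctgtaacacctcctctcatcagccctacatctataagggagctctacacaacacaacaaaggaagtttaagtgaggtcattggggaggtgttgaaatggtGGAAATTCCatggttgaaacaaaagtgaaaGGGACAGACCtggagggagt

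The letters were searched on both strands in the 250 bases before the RefSeq start (103047012) of Acod1 and of all 32851 promoters in the table. A loose NF-kB pattern, 3 G, 5 free letters and 2 C, matched once as GGGACAGACC at 103046957 to 103046966, and 45.8% of promoters hold a match to it. The stricter letters GGAAATTCC, a κB-type sequence chosen after this promoter was seen, lie at 103046927 to 103046935 and occur in 0.286% of promoters. TATAAA, also chosen afterwards and searched on the plus strand, begins 28 bases before the RefSeq start, which is inside the first exon of the GENCODE transcript and so is not printed here. It occurs in 7.59% of promoters. The letters of a doubled interferon-response motif (in 2.98% of promoters), TGANTCA (AP-1, 6.75%), TTNNGCAA (C/EBP, 9.56%) and TGACGTCA (CRE, 1.55%) are not in this window.

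After the cell filter, 12123 THP cells with a median of 16113 UMIs (unique molecular identifiers, each counting 1 captured RNA molecule) and 10978 vehicle cells with a median of 17223 UMIs were kept. The libraries shared 42 barcodes, of which 38 were kept, and Acod1 was found in 13 of these with THP and 1 with vehicle. Cells were sorted into classes by summed marker genes per 10000 UMIs. Each class is a range of scores rather than a cell type, and 474 THP cells and 523 vehicle cells lay less than 25% above the cut that placed them. Only part of the cells carried macrophage markers above the cut. Macrophage-gated cells, defined by genes such as Adgre1, Csf1r and C1qa, were 42.1% of THP cells and 26.2% of vehicle cells, while neutrophil-gated cells were 25.2% and 32.5%. In macrophage-gated cells 9 of the 10 macrophage markers stood at 50 or more counts per 1000000 UMIs (CPM) in each library, and none was at 0. Doublets were not removed.

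Acod1 was present in both libraries and far more abundant in the THP library. It had 15253 UMIs among 224825484 in kept THP cells and 902 among 207662132 in vehicle cells. The share of cells with at least 1 Acod1 UMI was 36.7% with THP (35.9 to 37.6) and 4.65% with vehicle (4.26 to 5.06). The share was thus 7.90 times as high, and cells with the gene held 3.43 UMIs on average against 1.77, so the libraries differed in the number of cells with a UMI and in the UMIs per such cell. When each cell was thinned to 5000 UMIs, which left out 1958 THP cells and 1966 vehicle cells, the shares were 18.6% and 1.38%. Acod1 had the highest ratio of the 8012 genes with at least 10 CPM in a library, on the log2(CPM + 1) scale. This is the contrast by which it was chosen. A rule of 2-fold on that scale was passed upward, toward THP, by 0.911% of these genes and downward by 2.97%. With TMM factors, a scaling by the bulk of genes, 138 genes were higher and 69 lower in place of 73 and 238, and the median log2 ratio of all genes moved from -0.18 to 0.11.

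**Figure D1:**
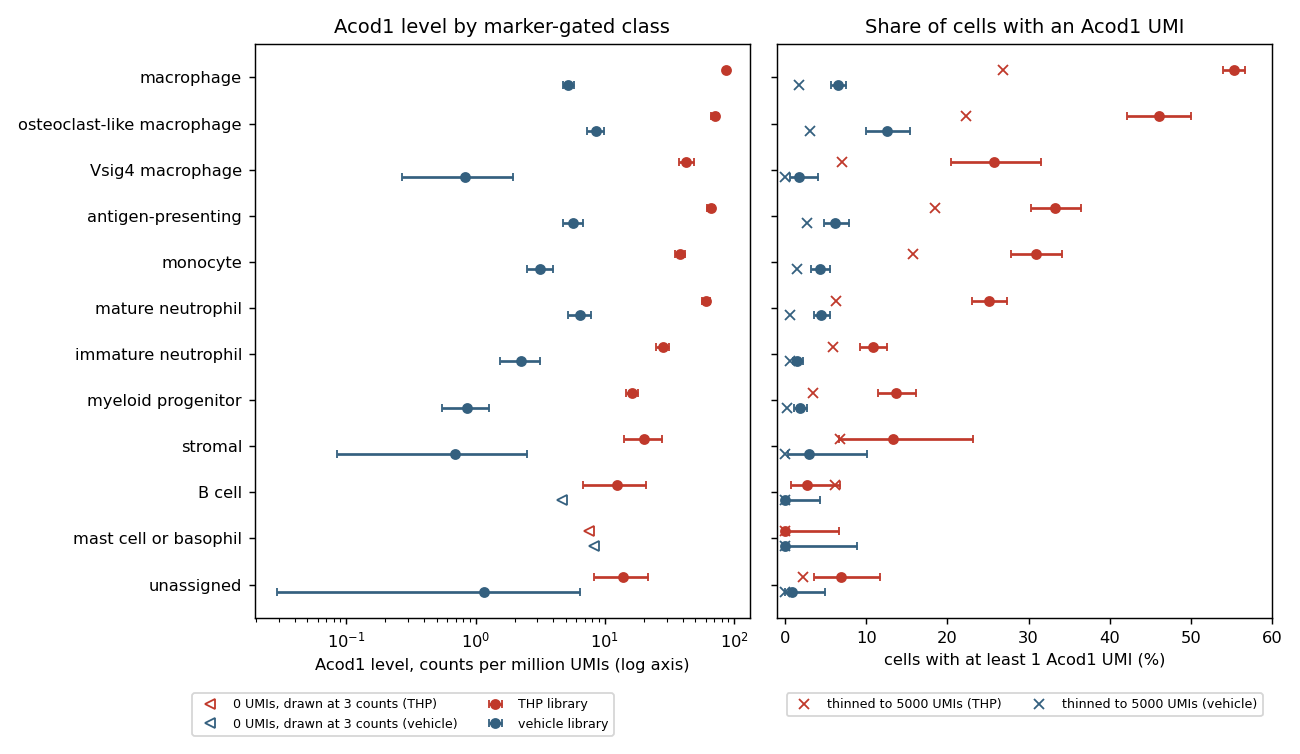
Left, Acod1 level (CPM, log axis) in each marker-gated class with exact Poisson 95% intervals, and right, the share of cells with at least 1 Acod1 UMI as counted (dots, exact binomial 95% intervals) and after thinning to 5000 UMIs per cell (crosses). Red is the THP library and blue the vehicle library, and open triangles mark classes with 0 UMIs, drawn at 3 counts. Macrophage-gated THP cells lie highest on both measures, at 86.5 CPM and 55.3% of cells.

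Macrophage-gated cells carried 71.2% of all Acod1 UMIs of the THP library while holding 55.9% of its UMIs. In the vehicle library they carried 42.5% of Acod1 and 35.4% of UMIs. Their Acod1 level was 86.5 CPM (84.8 to 88.1, 5098 cells) with THP and 5.21 CPM (4.70 to 5.76, 2875 cells) with vehicle, a 16.6-fold difference (15 to 18.4). The gene was found in 55.3% of these cells against 6.57%, or in 26.9% against 1.75% at 5000 UMIs per cell. The level differed little with depth, from 77.5 CPM in the shallowest quartile of macrophage-gated THP cells to 88.1 CPM in the deepest.

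The other macrophage classes differed in their CPM with vehicle. Osteoclast-like macrophages, gated on genes of bone-resorbing cells such as Ctsk and Acp5, had 70.4 CPM (66.4 to 74.7) with THP. Their vehicle level of 8.48 CPM (7.22 to 9.91) lay above that of macrophage-gated cells, with intervals that do not overlap, and their fold was smaller at 8.30 (7.03 to 9.87). Few cells carried that vehicle level, since 6 of 599 cells held 30.8% of the class's Acod1. Macrophages gated on Vsig4 and 3 related genes, Vsig4 being a complement receptor of resident macrophages, had 42.7 CPM (37.4 to 48.5) in 253 THP cells. In 287 vehicle cells of that gate only 5 Acod1 UMIs were counted, 0.828 CPM (0.269 to 1.93), a ratio of 51.5 (21.8 to 160). Few cells carried the THP level of this class, since 3 cells held 31.6% of its Acod1 and 1 cell held 43 of the 234 UMIs. With equal weight per cell it was 27.2 CPM. These cells had the most complement C1q of the macrophage classes, 4347 CPM summed over C1qa, C1qb and C1qc with THP against 965 in macrophage-gated cells. By CPM with THP the 3 classes thus ordered as macrophage, osteoclast-like and Vsig4. With vehicle, osteoclast-like cells came before macrophage-gated and Vsig4 cells, and neighbouring CPM intervals did not overlap in either library. The shares at 5000 UMIs per cell do not settle these orders. With vehicle they were 3.09% (1.84 to 4.84), 1.75% (1.29 to 2.31) and 0 (0 to 1.34), and neighbouring intervals overlapped. With THP the intervals of macrophage-gated and osteoclast-like cells overlapped.

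Antigen-presenting cells, gated on MHC class II genes, had 65.7 CPM (61.7 to 69.8) against 5.68 CPM (4.71 to 6.78). The cell with most Acod1 in the data was of this class, with 69 UMIs. Monocyte-gated cells, marked by Ly6c2 and Ccr2 among others, had 38.0 CPM (34.8 to 41.4) against 3.16 CPM (2.48 to 3.96). The 2 folds, 11.6 (9.58 to 14.1) and 12 (9.44 to 15.5), did not differ beyond counting error.

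In mature neutrophils the level was 60.2 CPM (56.1 to 64.6) with THP and 6.41 CPM (5.19 to 7.83) with vehicle, and in immature neutrophils, gated on granule genes such as Ngp and Camp, 28.0 CPM (24.9 to 31.3) and 2.24 CPM (1.55 to 3.14). The folds were 9.39 (7.59 to 11.7) and 12.5 (8.73 to 18.3). The names are those of the gates and do not order these classes by maturity. The summed markers of the mature gate stood higher in immature neutrophils, at 221334 CPM with THP and 202308 CPM with vehicle. In mature neutrophils they stood at 144704 CPM and 126994 CPM. The contrast of these classes is therefore not read as one of maturity. Acod1 was found in 25.2% of mature neutrophil cells against 4.47%, at a median depth of 5586 and 5928 UMIs.

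Myeloid progenitors, gated on Mpo and Elane among others, had 16.2 CPM (14.5 to 18.1) against 0.856 CPM (0.554 to 1.26). The 37 THP progenitors with at least 3 Acod1 UMIs had a median of 41203 UMIs and 12.5 macrophage marker UMIs per 10000, against 19534 and 1.71 in the 732 without Acod1. Stromal cells had 36 UMIs in 75 THP cells, 19.9 CPM (13.9 to 27.5), and 2 UMIs in 69 vehicle cells, a ratio of 28.7 (7.38 to 246). The 10 stromal cells with Acod1 were likewise deeper and richer in macrophage markers, with medians of 9.49 per 10000 UMIs in the 6 with 1 or 2 Acod1 UMIs and 14 in the 4 with 3 or more, against 0.561 in those without. Cells with Acod1 in other classes were also richer in macrophage markers, in smaller measure, but not always deeper. Mature neutrophils with 3 or more Acod1 UMIs had a median of 5.47 macrophage marker UMIs per 10000 against 2.41 in those without, immature neutrophils 4.28 against 1.21 and monocytes 7.78 against 4.74. Those mature neutrophils were shallower, with a median of 2201 UMIs against 8332.5 in those without. The medians were 6884 against 6195 in immature neutrophils and 16858 against 15012 in monocytes. The part of macrophage RNA, from doublets or free in the droplets, in the Acod1 of these 5 classes was not tested.

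B cells and mast cells or basophils, which should lack the gene, set the background. B cells of the THP library held 14 Acod1 UMIs in 4 of 149 cells (2.68%, 0.736 to 6.73), 12.4 CPM (6.77 to 20.8), at a median of 3712 UMIs. The 2 B cells with at least 3 Acod1 UMIs had a median of 40376 UMIs. The 84 vehicle B cells held none, with an interval that reaches 5.76 CPM. The THP level was 2.64 times a floor of 3 counts in that class, a value that leaves out the counting error of the 14 UMIs. Mast cells or basophils held no Acod1 UMI in 54 THP cells and 40 vehicle cells, with medians of 5081 and 7225 UMIs, which allows up to 5.56% and 7.50% of cells with a UMI. At 1000 UMIs per cell, a depth every kept cell reaches, the THP shares were 2.01% of B cells (0.417 to 5.77), 1.06% of progenitors (0.486 to 2.01) and 0 of 75 stromal cells. The B cell share rests on 3 of 149 cells. The shares of progenitors and stromal cells lay at or below it and cannot be told apart from background. The share was 7.28% of macrophage-gated cells (6.58 to 8.02) and 14.7% of mature neutrophils (13 to 16.6), both above the B cell interval. The intervals of the other 5 classes overlapped that of B cells, so by this share they cannot be told apart from background either. Their shares were 5.05% of antigen-presenting cells (3.73 to 6.66), 4.78% of osteoclast-like macrophages (3.25 to 6.75), 3.47% of immature neutrophils (2.58 to 4.55), 3.16% of Vsig4 macrophages (1.37 to 6.14) and 3.02% of monocytes (1.98 to 4.39). By CPM, which uses all UMIs, the intervals of these 5 classes lay above that of B cells, and those of progenitors and stromal cells overlapped it. These intervals treat each UMI as an independent count, while the 14 B cell UMIs lay in 4 cells. The CPM intervals therefore do not settle which of these classes stand above background.

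The ratio of Acod1 to macrophage markers differed between classes. Per 100 macrophage marker UMIs, the THP library held 3.33 Acod1 UMIs (3.27 to 3.39) in macrophage-gated cells, 3.27 (3.08 to 3.47) in osteoclast-like macrophages, 0.621 (0.544 to 0.706) in Vsig4 macrophages and 4.74 (4.46 to 5.04) in antigen-presenting cells. It held 2.76 (2.46 to 3.08) in progenitors, 3.00 (2.10 to 4.15) in stromal cells and 1.34 (0.732 to 2.25) in B cells. Mature neutrophils held 12.8 (11.9 to 13.7), immature neutrophils 4.36 (3.89 to 4.87) and monocytes 6.16 (5.64 to 6.70). The ratio thus also varied among the macrophage classes themselves, lowest in the Vsig4 gate, where the macrophage markers were most abundant.

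Acod1 was uneven among cells of 1 class. In macrophage-gated THP cells, 44.7% had no UMI, although a Poisson count at the class mean and each cell's own depth would leave 20.2% without one. The 10% of these cells with most Acod1 held 48.5% of it. Cells with 5 or more UMIs were 15.7% of the class with THP and 0.626% with vehicle. The highest count was 37 UMIs in a THP cell and 13 in a vehicle cell. In the vehicle library 1% of macrophage-gated cells, 29 cells, held 44.9% of the Acod1 of the class.

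**Figure D2:**
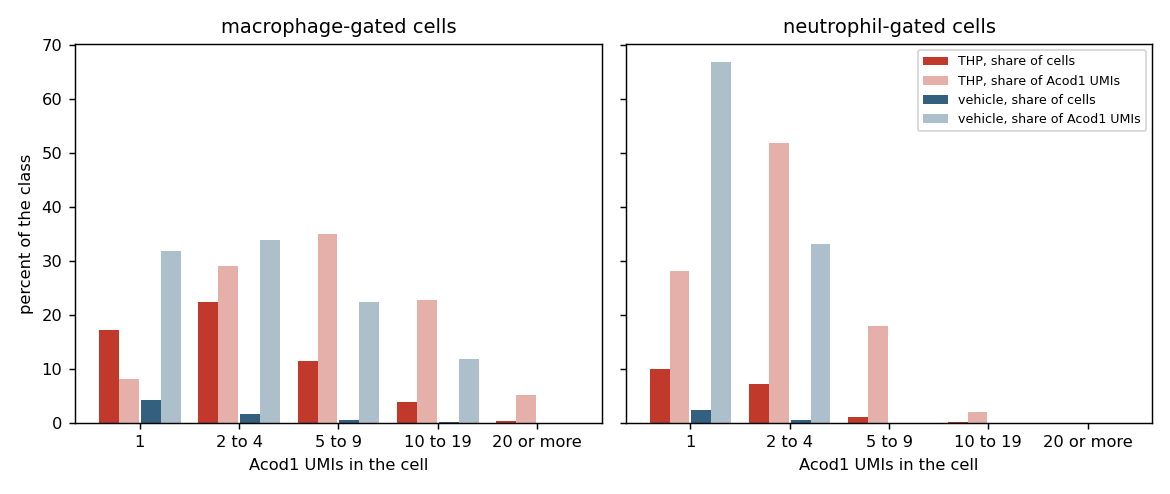
Share of cells (dark bars) and share of the Acod1 UMIs of the class (pale bars) by the number of Acod1 UMIs in a cell, in macrophage-gated and neutrophil-gated cells. Red is the THP library and blue the vehicle library, and cells without Acod1 are not drawn. In macrophage-gated THP cells, those with 5 to 9 UMIs are 11.5% of cells and hold 35.0% of Acod1.

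In macrophage-gated THP cells, Acod1 differed over ranges of macrophage markers without a steady order and was lowest in the cells richest in mitotic markers. At 5000 UMIs per cell, the share of macrophage-gated THP cells with Acod1 ran from 22.7% to 30.8% over 4 ranges of summed macrophage markers. It was 28.6% (25.5 to 32) in cells without a mitotic marker UMI and 23.8% (21.5 to 26.3) in cells with 10 or more, at levels of 100 CPM and 67.3 CPM. The vehicle library did not share this order. Its shares were 1.04% (0.283 to 2.63) and 1.90% (1.15 to 2.95), at 2.07 CPM and 5.61 CPM. The intervals of these shares overlap within each library. Mki67, a proliferation marker, was at 243 CPM (236 to 251) in macrophage-gated THP cells without Acod1 and 163 CPM (136 to 194) in those with 3 or more Acod1 UMIs.

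A small set of interferon-high macrophage-gated cells had more Acod1 than the rest in both libraries. These cells had at least 20 UMIs per 10000 of Rsad2, Cxcl10, Ifit1, Ifit3 and Isg15 together, a cut chosen after the data were seen, and 16 of 92 THP cells and 7 of 31 vehicle cells lay less than 25% above it. Their Acod1 level was 208 CPM (191 to 226) with THP, where 82.6% of cells had the gene, and 73.2 CPM (55.3 to 95) with vehicle, where 35.5% did (19.2 to 54.6). In the remaining macrophage-gated cells it was 83.9 CPM and 4.49 CPM. The interferon-high cells were 1.08% of macrophage-gated vehicle cells and held 14.6% of their Acod1, in 11 cells with 56 UMIs. In the THP library they were 1.80% of cells and held 5.05%. Their median depth was 20706 and 20807 UMIs, against 20656 and 22810 in the other cells. Saa3, an acute-phase gene described below with Acod1, had 210 CPM in the interferon-high THP cells and no UMI in those of the vehicle library.

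Among neutrophil-gated cells Acod1 was concentrated in those with the least RNA. The shallowest quartile had a median of 1941 UMIs with THP and 1818 with vehicle, and an Acod1 level of 391 CPM (359 to 424) and 52.6 CPM (42.1 to 64.9). The deepest quartile, at medians of 15208 and 16613 UMIs, had 15.6 CPM (13.6 to 17.9) and 1.28 CPM (0.795 to 1.96). Of all neutrophil Acod1, the shallowest quartile held 52.5% with THP and 66.9% with vehicle. The fold between libraries was 7.43 (5.92 to 9.42) in the shallowest and 12.2 (7.76 to 20.1) in the deepest quartile.

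Acod1 also followed neutrophil maturity, and the more mature cells held fewer UMIs, with a THP median of 9204 below a score of 5 and 2509 at 60 or more. Neutrophil-gated cells were split, after the data were seen, by 6 maturity genes per 10000 UMIs (Retnlg, Cxcr2, Mmp8, Csf3r, Ly6g and Il1r2, leaving out the abundant S100a8 and S100a9). Below a score of 5 the Acod1 level was 12.9 CPM (11.3 to 14.6) with THP and 0.812 CPM (0.489 to 1.27) with vehicle. From 5 to under 20 it was 94.9 CPM (83.0 to 108) and 6.23 CPM (3.69 to 9.85). From 20 to under 60 it was 187 CPM (165 to 212) and 26.4 CPM (18.8 to 35.9), and at 60 or more 241 CPM (217 to 266) and 23.0 CPM (17.3 to 30.1). The level thus increased over the first 3 ranges in both libraries. No order of the 2 highest ranges is read, since at 1000 UMIs per cell their THP shares were 22.1% (17.8 to 26.8) and 21.7% (18.2 to 25.5). Of the 521 THP cells at 60 or more, 56 lay less than 25% above the cut.

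At the highest maturity the neutrophil level exceeded that of macrophage-gated cells 2.78-fold in the THP library. The share at 1000 UMIs per cell gave the same order, 21.7% (18.2 to 25.5) against 7.28%. In the vehicle library the shares were 2.52% (1.57 to 3.83) and 0.487% (0.266 to 0.816). Macrophage markers stood at 344 CPM in these THP neutrophils against 2597 CPM in macrophage-gated cells. Over the whole mature neutrophil class, which includes cells of low maturity score, the summed level of 60.2 CPM lay below that of macrophage-gated cells and the share at 1000 UMIs above it, so no order of the 2 classes is read. Counted with equal weight per cell, the mature neutrophil level was 208 CPM with THP and 31.8 CPM with vehicle, and the macrophage level 87.7 and 5.51 CPM.

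**Figure D3:**
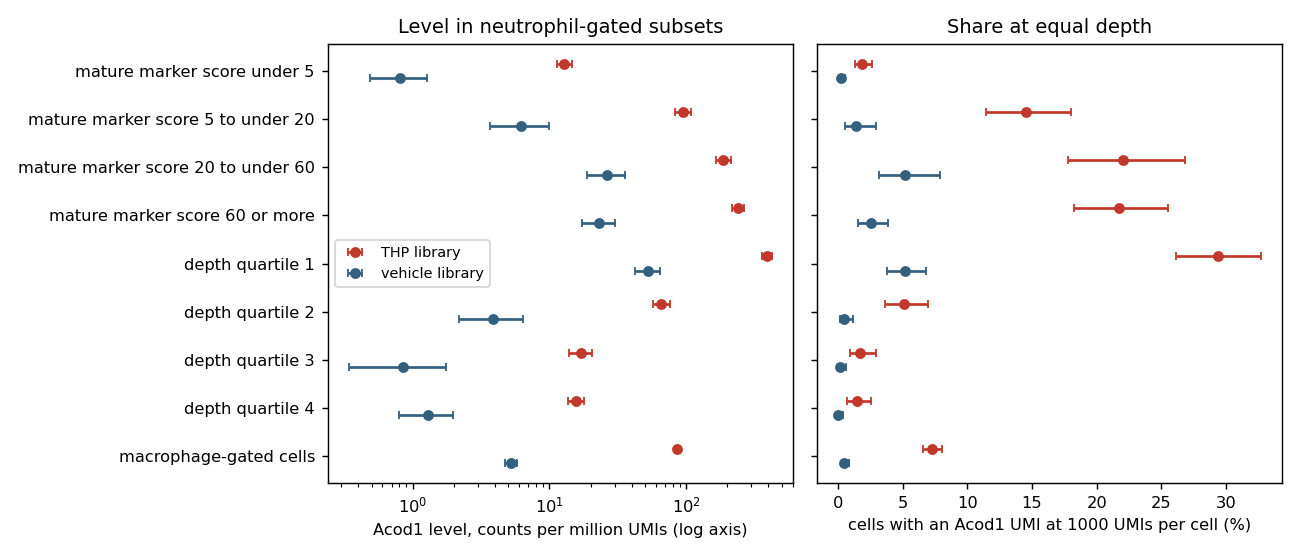
Left, Acod1 level (CPM, log axis, exact Poisson 95% intervals) in neutrophil-gated cells by maturity score and by quartile of UMIs per cell, with macrophage-gated cells for comparison, and right, the share of cells with an Acod1 UMI after thinning every cell to 1000 UMIs (exact binomial 95% intervals). Red is the THP library and blue the vehicle library. The shallowest quartile has the highest level in both libraries, 391 and 52.6 CPM.

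Genes that varied with Acod1 from cell to cell were ranked by Pearson's r of log counts at 5000 UMIs per cell, as a description without a test. Cells of 1 library share their culture and are not replicates. In 4898 macrophage-gated THP cells, of which 1317 had Acod1, r reached 0.21 at most and the central 95% of 7305 genes lay between -0.04 and 0.04, so each pairing was weak. The first 15 were Saa3, Clec4e, Lyz2, Sod2, Prdx5, Cd14, Marcksl1, Cybb, Fth1, Ccl4, Ccl3, Cxcl2, Ccl2, Nlrp3 and Ccl7. They include an acute-phase protein (Saa3), pattern receptors (Clec4e, Cd14), the mitochondrial superoxide dismutase (Sod2) and monocyte and neutrophil chemokines (Ccl2, Ccl7, Cxcl2). Lowest were Ptma, Rpl5 and Dab2, at -0.10, -0.09 and -0.09.

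Among these 15 genes Saa3 had the largest fold between cells with and without Acod1, 2.99. Its r was nearly equal to that of Clec4e, both at 0.21. At 10000 UMIs per cell, and also by Spearman's rank correlation, Sod2, Lyz2 and Clec4e came before Saa3. The Saa3 level was 101 CPM (96.8 to 106) in macrophage-gated THP cells without Acod1 and 210 CPM (197 to 224) in cells with 1 Acod1 UMI. It was 312 CPM (284 to 342) with 2 and 799 CPM (738 to 864) in the 158 cells with 3 or more. Of cells with Saa3, 42.7% had Acod1, against 23.4% of cells without. Clec4e, the receptor Mincle, went from 337 CPM (329 to 346) to 754 CPM (695 to 818) over the same bins, and Sod2 from 537 CPM (527 to 548) to 923 CPM (857 to 992). The macrophage marker Adgre1 was at 486 CPM (476 to 497) and 524 CPM (475 to 577) in the same bins, with overlapping intervals. In neutrophil-gated THP cells Saa3 did not have this relation, and was found in 15.4% of cells with Acod1 (9.06 to 23.8) and 24% of those without (21.9 to 26.2). Median depth before thinning was 20794 UMIs in macrophage-gated THP cells without Acod1 and 20849 in those with 3 or more. In neutrophil-gated THP cells it was 10048 UMIs without Acod1 and 5982 in the 11 cells with 3 or more.

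In neutrophil-gated THP cells the relations were stronger and were led by Il1b. At 1000 UMIs per cell, where all 3051 cells enter and 287 had Acod1, r was 0.47 for Il1b (interleukin 1 beta), 0.42 for Cxcl2 and 0.41 for Fth1 (ferritin heavy chain). Il1b was found in 64.5% of cells with Acod1 and 11.9% of those without. Both genes followed maturity, so the ranking was repeated in the 521 cells with a maturity score of 60 or more. There r was 0.33 for Fth1 and 0.32 for Il1b, and Il1b had 2451 CPM in the 113 cells with Acod1 and 860 CPM in the others. In vehicle neutrophils, with 51 Acod1 cells of 3572, the first 10 genes shared 7 with the THP list (Il1b, Cxcl2, Fth1, Marcksl1, Cd14, Clec4d and Clec4e). At 5000 UMIs per cell, with 1701 THP cells and 104 with Acod1, Slc7a11 (the cystine transporter) was second at 0.42, with 78.8 CPM in cells with Acod1 and 4.13 CPM in those without.

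In the vehicle macrophage-gated cells interferon genes led. There were 48 cells with Acod1 among 2743, and the first 7 genes were Cxcl10 (r of 0.26), Rsad2 (0.23), Ifit3, Mx1, Isg15, Ifit2 and Ifih1. Cxcl10 was found in 25% of cells with Acod1 and 2.71% of those without. Of the 48 cells, 7 were among the 36 cells with 10 or more UMIs of the 5 interferon-high markers at this depth. How far these few interferon-high cells, described above, set the ranking was not tested. Of the first 15 genes, 2 (Ccl4 and Clec4e) were also among the first 15 of macrophage-gated THP cells, whose list shared 6 with that of neutrophil-gated THP cells.

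**Figure D4:**
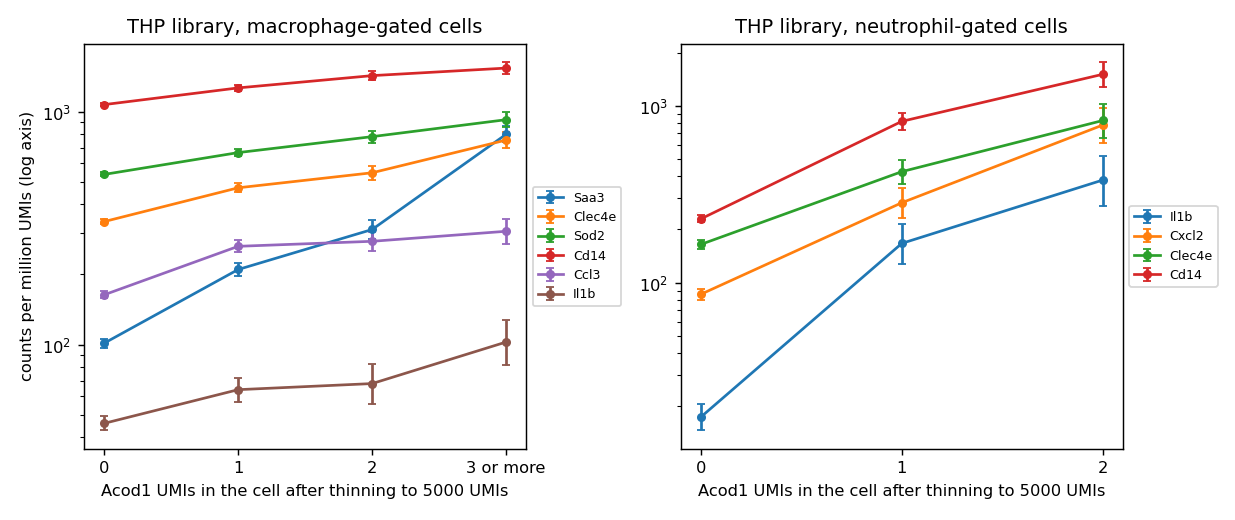
Level (CPM, log axis, exact Poisson 95% intervals) of genes that varied with Acod1, by the number of Acod1 UMIs in a THP cell after thinning to 5000 UMIs, in macrophage-gated cells (left) and neutrophil-gated cells (right). A neutrophil bin of fewer than 20 cells, with 3 or more Acod1 UMIs, is not drawn. Saa3 goes from 101 to 799 CPM in macrophage-gated cells.

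The pattern of Acod1 over classes and libraries was compared with that of 9413 genes, by Pearson's r of log2(CPM + 1) over 17 points, each a class of at least 100 cells in a library. Most like it were Ccl3 (0.93), Clec4e (0.87), Cd14 (0.87), Nfkbie (0.87) and Cxcl2 (0.86), and Ccl3 was the only gene above 0.9. Within the THP library alone these 5 had r of 0.87, 0.69, 0.90, 0.64 and 0.96, and within the vehicle library 0.74, 0.52, 0.61, 0.42 and 0.44. Points of 1 library share their preparation.

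The genes around Acod1 were followed in lists by role, drawn up with earlier results of these data known, so their counts are descriptions. None of the other genes of itaconate synthesis given here came near Acod1. Citrate synthase (Cs) was at 78.8 CPM with THP and 79.1 CPM with vehicle. The citrate carrier Slc25a1 was at 45.2 and 37.7 CPM, and Aco1, the cytosolic aconitase, at 13.6 and 20.6 CPM. The median log2 ratio of the 4 measured genes of this list was -0.06, or 0.23 with TMM factors. Of the 20 measured TCA cycle genes, 0 passed 2-fold in either direction, where 3.88% of all genes did. Their median log2 ratio was -0.04 against -0.18 for all genes, and the widest were Pdha1 at -0.31, a subunit of pyruvate dehydrogenase, and Sdhd at 0.24, a subunit of succinate dehydrogenase. With TMM factors the median was 0.24 against 0.11.

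Genes for the fate and the targets of itaconate were few, and at the 3.88% of all genes past 2-fold a count of 0 says little about lists of this size. Of 6 measured genes of transport and disposal, 0 passed, with Slc25a10 (the dicarboxylate carrier) at 33.3 and 20.5 CPM, Abcg2 (an exporter) at 9.44 and 13.4 CPM, and Rab32 (a GTPase of the lysosome-related pathway) at 74.5 and 67.4 CPM. The itaconate receptor gene Oxgr1 had no UMI in either library. Of 9 genes whose proteins itaconate is reported to modify or inhibit, 0 passed. The inflammasome sensor Nlrp3 was the widest, 105 CPM with THP and 58.9 CPM with vehicle, followed by Tet2 (a DNA demethylase) at 34.8 and 47.6 CPM and the kinase Jak1 at 114 and 153 CPM. With TMM factors Nlrp3 passed, at a log2 ratio of 1.10, and the medians of the transport and target lists went from -0.04 and -0.09 to 0.23 and 0.20.

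Of 12 measured genes of the Nrf2 and Atf3 responses, 1 passed with a higher value, where 0.911% of all genes did. It was Nfkbiz, which encodes the NF-kB cofactor IkB-zeta, at 46.8 CPM with THP and 11.5 CPM with vehicle, a log2 ratio of 1.94. The list gives no direction of response for its members, so this count does not measure the activity of either response. Atf3 had a log2 ratio of 0.63, Slc7a11 0.50, Hmox1 (heme oxygenase) 0.36 and Gclc (glutathione synthesis) -0.43.

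Reported regulators of Acod1 were divided. Of 15 measured, 2 passed with higher values and 1 with a lower value, where 0.911% and 2.97% of all genes did. The 2 higher genes encode receptors of bacterial products. Tlr2 was at 90.9 CPM with THP and 31.0 CPM with vehicle, and Cd14 at 893 and 310 CPM. Tlr4 was the lower gene, at 11 and 24.1 CPM, a log2 ratio of -1.07. With TMM factors 3 of the 15 regulators were higher and 0 lower. Of all genes, 8012 of which were tested before this scaling, 138 were then higher and 69 lower. The transcription factor genes Cebpb and Nfkb1 had log2 ratios of 0.85 and 0.56. In macrophage-gated cells, where 1.06% of 7825 genes were higher and 2.54% lower (3.6% in all), Tlr2, Cd14 and Tlr4 were at 1.41, 1.27 and -1.42.

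Of 20 measured inflammatory genes known to accompany Acod1 in activated macrophages, 15 passed with higher values and 0 with lower in all kept cells, where 0.911% of all genes were higher. In macrophage-gated cells, where 1.06% were, 15 of 20 passed as well. The median log2 ratio of the 20 was 1.84 in all kept cells and 1.74 in macrophage-gated cells. In all kept cells the widest were Saa3 (3.39), the chemokines Cxcl1 (3.09) and Ccl4 (2.88), Il1b (2.69) and Tnf (2.56). Nos2, the inducible nitric oxide synthase, had 31 UMIs with THP and 4 with vehicle, and Il6 179 and 39. The antimicrobial Lcn2 was at 1085 and 1272 CPM.

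**Figure D5:**
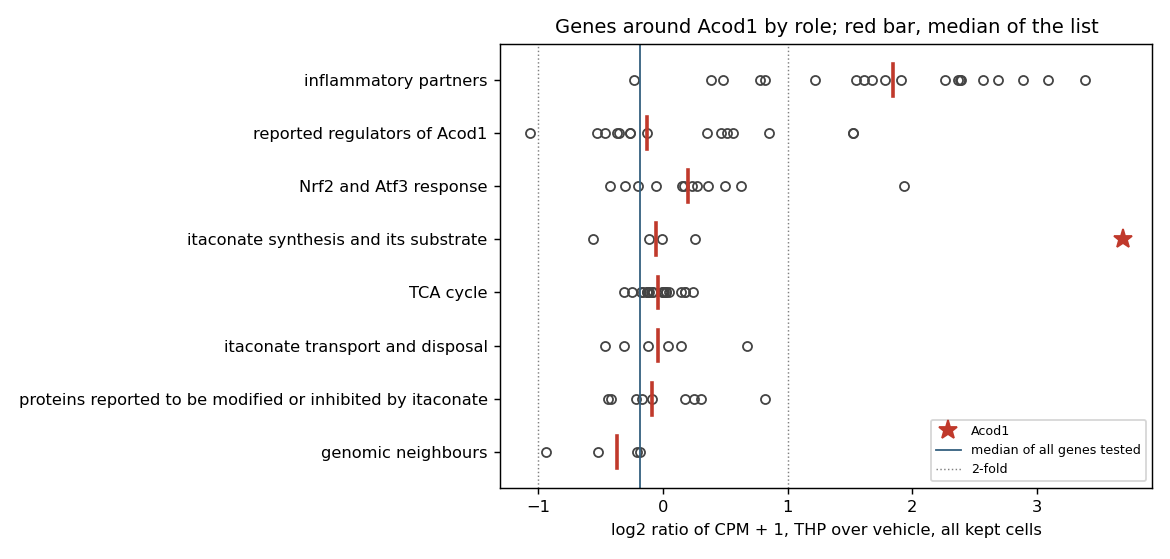
Log2 ratio of CPM + 1, THP over vehicle in all kept cells, of each gene with at least 10 CPM in a library (circles), by list, with the median of the list (red bar), the median of all genes tested (blue line, -0.18) and 2-fold (dotted). Acod1 (star, 3.69) lies apart from the other genes of itaconate synthesis, which run from -0.56 to 0.26.

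The genes next to Acod1 on chromosome 14 were too few for a count to set them apart. Of 10 annotated genes within 500 kb, 4 had at least 10 CPM, and 0 of these passed 2-fold, against 3.88% of all genes. Kctd12, which lies before Acod1, was at 89.2 CPM with THP and 103 CPM with vehicle. Mycbp2, a ubiquitin ligase gene, had the widest ratio of the 4, -0.93.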

How the data were processed

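The authors deposited raw counts of UMIs per gene and barcode, per the file headers written by matrix software version 3.1.0. The submitters' processing notes name Cell Ranger, STAR, bcl2fastq and the build mm10, and the annotation release is not stated there. Barcodes with at least 500 genes, 1000 UMIs and at most 10% mitochondrial UMIs were kept. Classes were gated in a fixed order on summed markers (5 or more per 10000 UMIs for macrophages, 100 for immature and 500 for mature neutrophils). Class sums were divided by their total UMIs to give CPM, with exact Poisson intervals, exact (Clopper-Pearson) intervals for shares and log2 ratios of CPM + 1, which understate changes of low genes. Floors use 3 counts. Molecules are counted by UMI, and intervals and floors cover counting error only. Cells were thinned with a fixed seed. edgeR 4.0.16 gave TMM and RLE factors in R 4.3.3. Python 3.11.15, numpy 2.4.6, scipy 1.17.1 and pandas 2.3.3 did the rest, and the fold calls and cell-to-cell ranking were tested on simulated data. Named genes were all of the synthesis list and up to 5 of each other list with the widest ratio at 10 CPM or more, the first 15 or 10 coexpressed genes, and a few singled out after their values were seen, such as Lcn2, Nos2 and Il6. The members and lists were chosen with earlier results of these data known. Some genes that this rule names are not reported here.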

Additional observations from a re-analysis of the deposited data

Results flagged for a closer look

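Acod1 was also counted in the barcodes that the cell filter left out, which enter no comparison above. The 1070 THP barcodes left out held 180 Acod1 UMIs, 78.1 CPM (67.1 to 90.4), with at least 1 UMI in 10.7% of them. The 606 vehicle barcodes left out held 6 UMIs, 4.20 CPM (1.54 to 9.13). The THP value lies above the level in the vehicle library, and each value's interval reaches that of the kept cells of its library.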

How the results depend on the processing

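No paired analysis was possible because there is 1 library per group, so a replicate could be neither blocked nor left out. Every setting tried kept Acod1 higher in the THP library. Over all kept cells the log2 ratio of 3.69 moved beyond counting error with the same class mix in both libraries (3.54), equal weight per cell (3.12), thinning to 5000 UMIs (3.79), RLE factors (3.94), TMM factors (3.94) and a pseudocount of 0.1 CPM (3.93). In macrophage-gated cells the ratio of 3.82 moved with the cells at or above the median gate score (4.09), TMM factors (4.03) and the pseudocount (4.03). In neutrophil-gated cells the ratio of 3.12 became 3.59 at or above the median gate score and 2.84 with equal weight per cell. The difference in the share of cells, 32.1 percentage points, followed depth and cut. It was 30.2 over all barcodes and also without the top 5% of cells by UMIs, 17.2 at 5000 UMIs, 5.72 at 1000 UMIs and 21.7 for at least 2 UMIs. Genes past 2-fold with TMM factors were 138 higher and 69 lower. Of the first 10 genes coexpressed in neutrophil-gated THP cells, 6 were shared between 5000 and 1000 UMIs. Without the top 5% of cells by UMIs these 3 log2 ratios stayed within counting error, and the osteoclast-like ratio went from 2.91 to 2.63. Ratios also stayed within it for neutrophils without the shallowest quartile, and for all kept cells without the shared barcodes. The other classes kept positive ratios in 35 of 35 alternatives, from 2.63 to 4.78, and 0 of 249 alternatives for list genes reversed. Thinning to 1000 UMIs, the splits by maturity and interferon score, and the settings on shared barcodes and shallow cells were chosen after seeing the data.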

Other observations

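In antigen-presenting THP cells, lysosomal and scavenger receptor genes were among those that varied most with Acod1. Among 852 cells at 5000 UMIs, 157 with Acod1, the first 10 were Fth1 (r of 0.32), Ctsd (0.28), Sod2 (0.26), Lyz2, Cd14, Pla2g7, Clec4e, Cd36, Ctsl and Msr1. Ctsd and Ctsl are lysosomal cathepsins, and Cd36 and Msr1 are scavenger receptors. Cd36 had 262 CPM in cells with Acod1 and 117 CPM in those without, and Ctsd 1508 and 772 CPM. The class was gated on MHC class II genes and its median macrophage score was 8.11 per 10000 UMIs. Whether the range of macrophage character within the gate sets this ranking was not tested.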
